A study of Mus musculus with 26 samples.

Results

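Mast cell transcripts were followed through the AOM–DSS model of colitis-associated colorectal cancer with 9 genes: *Mcpt1*, *Mcpt2*, *Mcpt4*, *Cma1*, *Tpsb2*, *Tpsab1*, *Cpa3*, *Fcer1a* and *Ms4a2*. The rule names these genes, which are known from mast cells, and uses no measured value. They were, however, chosen with earlier results of these data known. They are 9 of 35975 genes in the count table. *Mcpt1* and *Mcpt2* rose many-fold between untreated colon and day 22 in mice on either diet. At day 43 neither was called against day 0 in the model used, which carries the share of ribosomal protein genes. Without that share both were called on either diet. At day 70 both were called higher than at day 0. On GW3965 the day 70 samples overlapped those of day 0 for both genes, and neither was called without replicate 2. The proteases of the connective tissue type, *Mcpt4*, *Cma1*, *Tpsb2* and *Cpa3*, passed the test in none of the comparisons of the model across all groups and, *Cma1* apart, differed widely between samples of the same group. None of the 8 genes that could be tested differed between the diets at FDR < 0.05 at any day.

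Mast cells are granulated cells of barrier tissues that mature locally from blood-borne progenitors and store proteases bound to serglycin. In mice they come in 2 broad types: mucosal mast cells, which sit in and under the epithelium, increase during gut inflammation and make the β-chymases *Mcpt1* and *Mcpt2*, and connective tissue mast cells, which reside in the submucosa and muscle layers and make the chymases *Mcpt4* and *Cma1*, the tryptases *Tpsb2* and *Tpsab1* and carboxypeptidase A3 (*Cpa3*). Both types carry the high-affinity IgE receptor, whose α subunit is *Fcer1a* and whose β subunit is *Ms4a2*, and which basophils share. In bulk tissue, fewer cells of a type and less RNA per cell cannot be told apart.

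RNA was sequenced from the colon of male wild-type C57BL/6J mice bought from Taconic at a starting age of about 10 weeks, in 26 samples. Mice were fed standard food or the same food with GW3965, a synthetic agonist of the nuclear receptors LXRα and LXRβ, from the day of an injection of 10 mg per kg of the carcinogen azoxymethane (AOM), and later drank cycles of dextran sodium sulfate (DSS), which damages the colonic epithelium. Tissue was taken at days 22, 43 and 70 (3 samples per diet and day). The paper states that RNA biopsies were from distal colon, at the areas of tumours. It reports no macroscopic tumours at day 22 and, at day 43, tumours almost only in mice on the standard diet. At day 70 it reports them in both diets, to a different extent. Diet and the extent of tumours therefore cannot be told apart at days 43 and 70. The day 0 group of each diet held 4 samples from mice with neither AOM nor DSS, 2 of them after 22 days on the diet and 2 after 43 days, so that no control was as old as the day 70 mice. By the labels, each diet had 1 cage for days 22 and 43 together and 1 other cage for day 0, while each mouse of day 70 had its own. Diet and cage therefore cannot be told apart at days 0, 22 and 43, nor can cage and day between day 0 and the later days. Sources differ on whether a sample was 1 mouse or a pool, and p-values then measure the spread between these samples.

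Totals per library ranged from 18195345 to 41522204 counts (median 20424702). The deepest library, standard diet day 43 replicate 1, also had the lowest RNA integrity number (2.6, against 6.8 or more elsewhere), and the fold changes of the members that rest on it are given with and without it. The 8 markers of colonic epithelium were all detected in every library. From day 43 on, markers of stratified epithelium, which the healthy colon lacks, were present as well: their summed level was between 7.81 and 28.8 CPM at days 0 and 22 and in GW3965 day 70 replicate 2, and between 184.5 and 31720 CPM in the other libraries of days 43 and 70. GW3965 day 70 replicate 1 held 23130 CPM of 8 skeletal muscle markers, against 784.4 CPM or less in all other libraries. The LXR targets *Abca1*, *Abcg1* and *Srebf1* summed to between 122.8 and 222.5 CPM on the standard diet and to between 447.8 and 901.6 CPM on GW3965, with no overlap. For 1 day 0 sample (GW3965, 43 days on diet, replicate 2) the title gives GW3965 but the characteristics give the other food, and it was placed by title. Its LXR target level lay in the range of the other GW3965 day 0 samples (711.9 to 757.2 CPM).

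All 4 chymase genes lie close together on chromosome 14 (GRCm38, GENCODE annotation): *Cma1* at chr14:55941451-55944675 on the minus strand, *Mcpt1* at chr14:56017971-56020384 and *Mcpt2* at chr14:56042041-56044642 on the plus strand, and *Mcpt4* at chr14:56059629-56062313 on the minus strand. The tryptases neighbour each other on chromosome 17 (*Tpsab1* at chr17:25343245-25345562 on the minus strand, *Tpsb2* at chr17:25366305-25369098 on the plus strand). *Cpa3* lies at chr3:20215620-20242181, *Fcer1a* at chr1:173221284-173227214 and *Ms4a2* at chr19:11615523-11623719, all on the minus strand. Since reads of near-identical neighbours could be shared between them, the 31-letter words of each transcript were searched for in the transcripts of all other genes. Of the words of *Mcpt1*, 6.71% occurred elsewhere and 3.46% in *Mcpt2*. Of those of *Mcpt2*, 3.3% occurred in *Mcpt1*, so most of the length of each transcript set the pair apart. *Mcpt4* shared 10.2% of its words with its neighbour *Cma2*, *Cma1* shared 10.6% with a pseudogene (*Gm48934*) that had no count in any library, and *Tpsb2* and *Tpsab1* shared under 1%.

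The promoters of 3 proteases are printed because they set sequence beside the expression patterns that follow: *Mcpt1* rose with AOM–DSS, *Mcpt4* passed the test in no comparison, and *Cpa3* followed *Mcpt4* from sample to sample. Each window runs from 250 bases before to 50 bases after the gene's start (RefSeq, GRCm38.p6), from chr14:56017714-56018013 on the plus strand for *Mcpt1*, chr14:56062261-56062560 on the minus strand for *Mcpt4* and chr3:20242132-20242431 on the minus strand for *Cpa3*. Capitals mark matches, on either strand, to 2 runs of letters that did not overlap here. GATAA is the core of the site bound by factors of a zinc finger family that mast cells depend on. The other run, TATAAA, is the box that lies just before the start of many genes.
Mcpt1: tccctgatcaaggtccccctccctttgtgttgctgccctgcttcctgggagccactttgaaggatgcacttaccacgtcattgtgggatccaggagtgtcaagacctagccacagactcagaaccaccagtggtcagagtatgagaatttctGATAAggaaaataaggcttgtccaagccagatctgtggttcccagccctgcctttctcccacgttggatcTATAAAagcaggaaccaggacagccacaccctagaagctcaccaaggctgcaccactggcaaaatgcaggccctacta
Mcpt4: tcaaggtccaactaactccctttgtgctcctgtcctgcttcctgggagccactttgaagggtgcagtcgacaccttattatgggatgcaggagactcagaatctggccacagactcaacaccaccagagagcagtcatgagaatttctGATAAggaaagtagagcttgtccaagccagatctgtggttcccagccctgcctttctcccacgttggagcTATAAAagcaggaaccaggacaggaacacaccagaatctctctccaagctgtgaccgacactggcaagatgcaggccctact
Cpa3: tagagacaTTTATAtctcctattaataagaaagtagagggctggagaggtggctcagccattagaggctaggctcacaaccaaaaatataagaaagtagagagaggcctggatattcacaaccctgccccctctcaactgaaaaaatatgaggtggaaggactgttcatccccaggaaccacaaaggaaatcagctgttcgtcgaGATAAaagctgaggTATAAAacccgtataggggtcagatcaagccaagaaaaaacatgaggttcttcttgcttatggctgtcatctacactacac
The windows of *Mcpt1* and *Mcpt4* were identical at 247 of 300 bases (82.3%) in a global alignment, the closest of the 15 pairs among the 6 genes with a window (*Mcpt1*, *Mcpt4*, *Cma1*, *Cpa3*, *Fcer1a* and *Ms4a2*), whose other 14 pairs reached 46% to 55.3%. In *Mcpt1* the GATAA match ended 94 bases and the TATAAA match 23 bases before the start, and in *Mcpt4* they ended 98 and 27 bases before it. *Cpa3* held GATAA 41 bases and TATAAA 26 bases before its start, and a further TATAAA on the other strand near the far end of the window. All 6 windows held GATAA at least once, against 25.4% of the 32851 promoters of the table. *Mcpt1*, *Mcpt4*, *Cpa3* and *Fcer1a* held TATAAA, against 13.6%, and that of *Fcer1a* ended 120 bases before the start. Of the other runs searched, the E-box CANNTG (N for any base) was in the windows of *Cma1*, *Cpa3* and *Fcer1a* only. It was in 72.3% of all promoters. The SMAD element GTCTAGAC was in none of the 6 windows and in 0.213% of all promoters. The half-site AGGTCA that nuclear receptors such as LXR bind was in none of the 6 windows and in 16.3% of all promoters, which says only that these letters are not in these 300 bases.

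Compared per length of transcript (TPM), *Cma1* had the highest level of the members, with a median of 10.1 TPM over the 26 samples, and the least spread (4.27 to 36.7 TPM). *Mcpt1* (median 4.34 TPM) and *Mcpt2* (3.64 TPM) spanned the widest range, from 0.341 to 86.4 TPM and from 0.139 to 148.9 TPM. *Tpsb2* (2.44 TPM), *Mcpt4* (2.38 TPM) and *Cpa3* (1.25 TPM) lay close to each other. *Fcer1a* (0.904 TPM), *Ms4a2* (0.175 TPM) and *Tpsab1* (0.122 TPM) were the lowest. *Tpsab1*, a tryptase that C57BL/6 mice lack as a protein because of a splice site mutation, had 121 counts in total, none in 6 of 26 samples, and at most 0.51 CPM outside standard-diet day 43 replicate 1 (1.4 CPM), and was left out of the tests by the filter on low counts. The other 8 members were tested.

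*Mcpt1* was near absent from untreated colon. Its level at day 0 was 0.377, 0.425, 1.06 and 0.248 CPM on the standard diet and 0.295, 1.04, 0.75 and 0.646 CPM on GW3965, which rested on 4 to 25 counts a library across these groups and GW3965 day 70 replicate 1. At day 22 it was 13.5, 13 and 20.7 CPM on the standard diet and 25.8, 10.0 and 45.3 CPM on GW3965. Every day 22 sample lay above every day 0 sample of its diet, as for 15.9% of all tested genes on the standard diet and 25.2% on GW3965. The group mean was 29.8 times that of day 0 on the standard diet and 39.6 times on GW3965.

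At day 43 *Mcpt1* stood at 114.1, 13.7 and 19.4 CPM on the standard diet and at 3.41, 4.19 and 3.48 CPM on GW3965. The standard-diet samples were all above the GW3965 samples, as for 4.2% of all tested genes, and replicate 1, the library of low RNA integrity, was far above the other 2 samples of its group. At day 70 it was 2.89, 18.3 and 19.2 CPM on the standard diet and 0.205, 11.7 and 1.59 CPM on GW3965. The GW3965 group of day 70 thus ran from below the lowest day 0 sample of its diet to a level in the range of day 22. By group mean, *Mcpt1* was ordered standard diet day 43, GW3965 day 22, standard diet day 22, standard diet day 70, GW3965 day 70, GW3965 day 43 and then the day 0 groups, and neighbours in this order overlapped in their samples except GW3965 day 43 and GW3965 day 0. The place of standard diet day 43 rested on the low-integrity library, since the other 2 samples of that group lay below the GW3965 day 22 mean of 27.0 CPM.

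*Mcpt2* followed *Mcpt1* closely (r = 0.98 between their log2 CPM over 26 samples, as a description). It was 0.094, 0.331, 0.808 and 0.149 CPM at day 0 and 8.71, 8.87 and 15.7 CPM at day 22 on the standard diet, and 0.295, 0.52, 0.838 and 0.348 CPM at day 0 and 20.9, 6.78 and 42.1 CPM at day 22 on GW3965. At day 43 it reached 209, 13.7 and 20.6 CPM on the standard diet and 4.99, 4.87 and 3.14 CPM on GW3965. At day 70 it was 2.16, 11.8 and 12.7 CPM on the standard diet and 0.409, 8.14 and 2.08 CPM on GW3965. Per length of transcript, *Mcpt2* was the lower of the pair in all 6 day 22 samples and in all 3 standard-diet samples of day 70. In the standard-diet samples of day 43 it was at 148.9, 10.2 and 13 TPM against 86.4, 10.7 and 12.9 TPM of *Mcpt1*, so that it was clearly the higher of the pair in the low-integrity library alone.

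**Figure D1:**
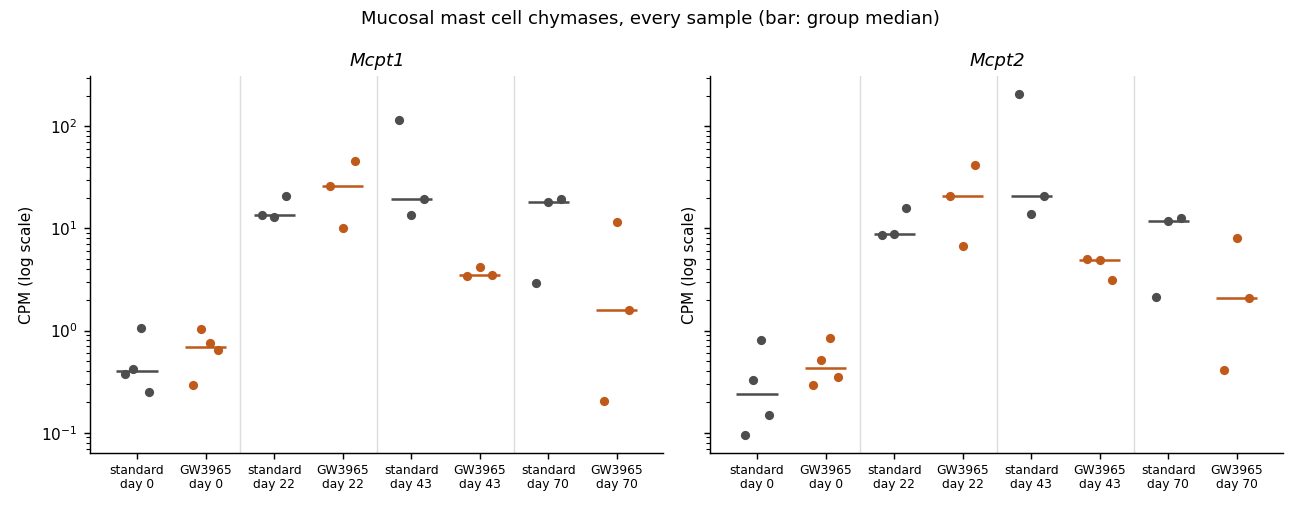
CPM of *Mcpt1* and *Mcpt2* on a log axis in each of the 26 samples, by diet and day, grey for the standard diet and orange for GW3965, with a bar at the group median. The day 22 samples of both diets sit above all day 0 samples, the GW3965 samples of day 43 sit below all standard-diet samples of that day, and 1 standard-diet sample of day 43 stands above all others.

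In the test across all genes (edgeR quasi-likelihood F-test, FDR over 17063 genes), the mucosal chymases rose at day 22. *Mcpt1* changed by a log2 fold change of 4.68 ± 1.00 (SE) on the standard diet (edgeR FDR = 0.00755) and of 4.87 ± 1.03 on GW3965 (edgeR FDR = 0.00405). *Mcpt2* changed by 4.69 ± 1.03 (edgeR FDR = 0.00864) and 4.91 ± 1.05 (edgeR FDR = 0.00437). They were the 2 of 8 tested members called in each diet, where 6.19% of all tested genes were called higher on the standard diet and 9.13% on GW3965 (and 3.46% lower there). When each day 22 group was set only against its 2 day 0 samples of the same 22 days on diet, the fold changes were as large (4.85 to 5.36 on the log2 scale) and none passed the threshold, with edgeR FDR from 0.0592 to 0.0667.

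At day 70 the same 2 members were called higher than at day 0 in both diets, where 18.1% of all tested genes were called higher and 15.1% lower on the standard diet, and 14.4% higher and 7.43% lower on GW3965. On the standard diet the log2 fold change was 4.57 ± 0.98 for *Mcpt1* (edgeR FDR = 0.00179) and 4.54 ± 1.01 for *Mcpt2* (edgeR FDR = 0.00229), and group means were 25.5 and 25.7 times those of day 0. On GW3965 it was 2.98 ± 0.98 for *Mcpt1* (edgeR FDR = 0.034) and 3.20 ± 1.01 for *Mcpt2* (edgeR FDR = 0.0283), and group means were 6.58 and 7.09 times those of day 0. The GW3965 result rested on replicate 2: without it the log2 fold change of *Mcpt1* was 0.61 (edgeR FDR = 0.68) and that of *Mcpt2* 1.59 (edgeR FDR = 0.282), and the call was also lost with the GW3965 day 0 sample of 22 days replicate 1 or of 43 days replicate 2 left out.

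The share of counts on ribosomal protein genes was higher at day 43 (10.02% to 18.56%) than in nearly all other samples (3.96% to 10.72%), and the model carries this share as a covariate. Day 43 and this share can therefore hardly be told apart in the model. For *Mcpt1* against day 0 on the standard diet, the SE was 2.04 at day 43 and 1.00 at day 22. A lack of calls at day 43 thus does not show that a gene was unchanged. The study's own model had the percentage of ribosomal RNA with all interactions, so the additive share of ribosomal protein genes used here is not its formula. With that covariate, 0 of 8 members were called against day 0 on either diet (2 on the standard diet and 0 on GW3965 had an unadjusted p under 0.05 in edgeR, and DESeq2 called 0), where 0% and 0.938% of all tested genes were called. *Mcpt1* then had a log2 fold change of 4.90 ± 2.04 on the standard diet (edgeR FDR = 0.515) and of 1.33 ± 1.44 on GW3965 (edgeR FDR = 0.761). Without the covariate *Mcpt1* was called on both diets, at 6.51 on the standard diet (edgeR FDR = 2.79e-05) and 2.41 on GW3965 (edgeR FDR = 0.039), and so was *Mcpt2*, at 7.82 (edgeR FDR = 9.14e-06) and 3.08 (edgeR FDR = 0.0139). With the low-integrity library left out as well, the standard-diet values without the covariate were 4.93 for *Mcpt1* (edgeR FDR = 0.000216) and 5.58 for *Mcpt2* (edgeR FDR = 5.29e-05). With the covariate and without that library they were 3.46 for *Mcpt1* (edgeR FDR = 0.38) and 3.48 for *Mcpt2* (edgeR FDR = 0.328), which had been 5.51 with it. All samples of day 43 lay above all day 0 samples of their diet for both genes, as 25.6% of tested genes did on the standard diet and 30.8% on GW3965.

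Markers of other cells moved over the same days as the mucosal chymases. The 5 general leukocyte markers, all detected in every library, summed to 157.1 to 396.2 CPM at day 0 and to 702.3 to 1122 CPM at day 22 over both diets. On the standard diet they were at 156.7 to 272.6 CPM at day 70. On GW3965 they were at 360.2, 894.3 and 389.1 CPM at day 70, against 166.9 to 313.6 CPM at day 0. Replicate 2, the highest of these, also had the most *Mcpt1* and *Mcpt2* of the GW3965 day 70 samples. The 4 mesothelial markers summed to 0.348 to 1.38 CPM at day 0 over both diets. At day 22 they summed to 4.35 to 20.0 CPM on the standard diet and to 1.44 to 2.22 CPM on GW3965. Over the 26 samples *Mcpt1* correlated with the mesothelial sum at r = 0.67 and with the leukocyte sum at r = 0.56, as a description. The part of these cells in the result was not tested.

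The connective tissue proteases showed another pattern. *Mcpt4*, the chymase of connective tissue mast cells, was 2.12, 2.64, 4.55 and 2.03 CPM at day 0 on the standard diet and 0.147, 0.346, 1.46 and 4.72 CPM on GW3965. At day 22 it was 1.02, 14.5 and 1.14 CPM on the standard diet and 3.05, 1.46 and 0.951 CPM on GW3965. At day 43 it was 3.98, 6.53 and 3.22 CPM on the standard diet and 0.646, 0.271 and 1.76 CPM on GW3965. At day 70 it was 0.263, 2.22 and 1.69 CPM on the standard diet and 3.38, 1.55 and 1.63 CPM on GW3965. Day 0 and day 70 samples overlapped in both diets, and replicate 2 of day 22 on the standard diet exceeded every other sample.

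*Tpsb2*, the main tryptase of connective tissue mast cells, and *Cpa3* rose and fell with *Mcpt4* across samples (r = 0.93 between *Mcpt4* and *Tpsb2*, 0.88 between *Mcpt4* and *Cpa3* and 0.91 between *Tpsb2* and *Cpa3*, over 26 samples that share depth and tissue makeup). *Tpsb2* was 1.88, 4.44, 6.64 and 1.49 CPM at day 0 on the standard diet and 0.098, 0.693, 2.16 and 5.92 CPM on GW3965, and *Cpa3* was 1.93, 1.79, 2.94 and 0.941 CPM and 0.098, 0.52, 1.06 and 3.48 CPM. At day 43 *Tpsb2* was 6.50, 6.48 and 3.11 CPM on the standard diet, above the 0.705, 0.473 and 3.09 CPM on GW3965 as for 4.2% of all tested genes, though the nearest samples were at 3.11 and 3.09 CPM, and *Cpa3* was 3.70, 3.27 and 0.965 CPM against 0.646, 0.406 and 1.37 CPM, which overlapped. At day 70 *Tpsb2* was between 1.05 and 4.10 CPM and *Cpa3* between 0.736 and 2.05 CPM over both diets. Standard-diet day 22 replicate 2 was the highest for each of them, with 24.2 CPM of *Tpsb2* and 10.4 CPM of *Cpa3*, against 0.86 and 1.71 CPM of *Tpsb2* and 1.08 and 1.34 CPM of *Cpa3* in the other samples of its group. The lowest was the GW3965 day 0 sample of 22 days replicate 1, with 0.098 CPM of each, which is 2 counts and below the limit of 0.147 CPM that a count of 0 would allow there.

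None of *Mcpt4*, *Cma1*, *Tpsb2* and *Cpa3* was called in the 6 comparisons with day 0 (edgeR, FDR < 0.05). *Mcpt4* had log2 fold changes of 1.14 ± 1.07 at day 22 (edgeR FDR = 0.613) and -0.98 ± 1.00 at day 70 (edgeR FDR = 0.474) on the standard diet, and of 0.21 ± 1.00 and 0.26 ± 1.04 on GW3965. For *Tpsb2* they were 1.57 ± 1.17 and -0.87 ± 1.08 on the standard diet and -0.34 ± 1.11 and -0.12 ± 1.13 on GW3965. For *Cpa3* they were 0.99 ± 0.91 and -0.5 ± 0.85 on the standard diet and -0.22 ± 0.94 and 0.33 ± 0.89 on GW3965. Without replicate 2 of day 22 the standard-diet values of that day turned negative for all 3 (-1.27 for *Mcpt4*, -1.35 for *Tpsb2* and -0.63 for *Cpa3*), still with no call. Errors of this size leave room for changes of several-fold either way.

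**Figure D2:**
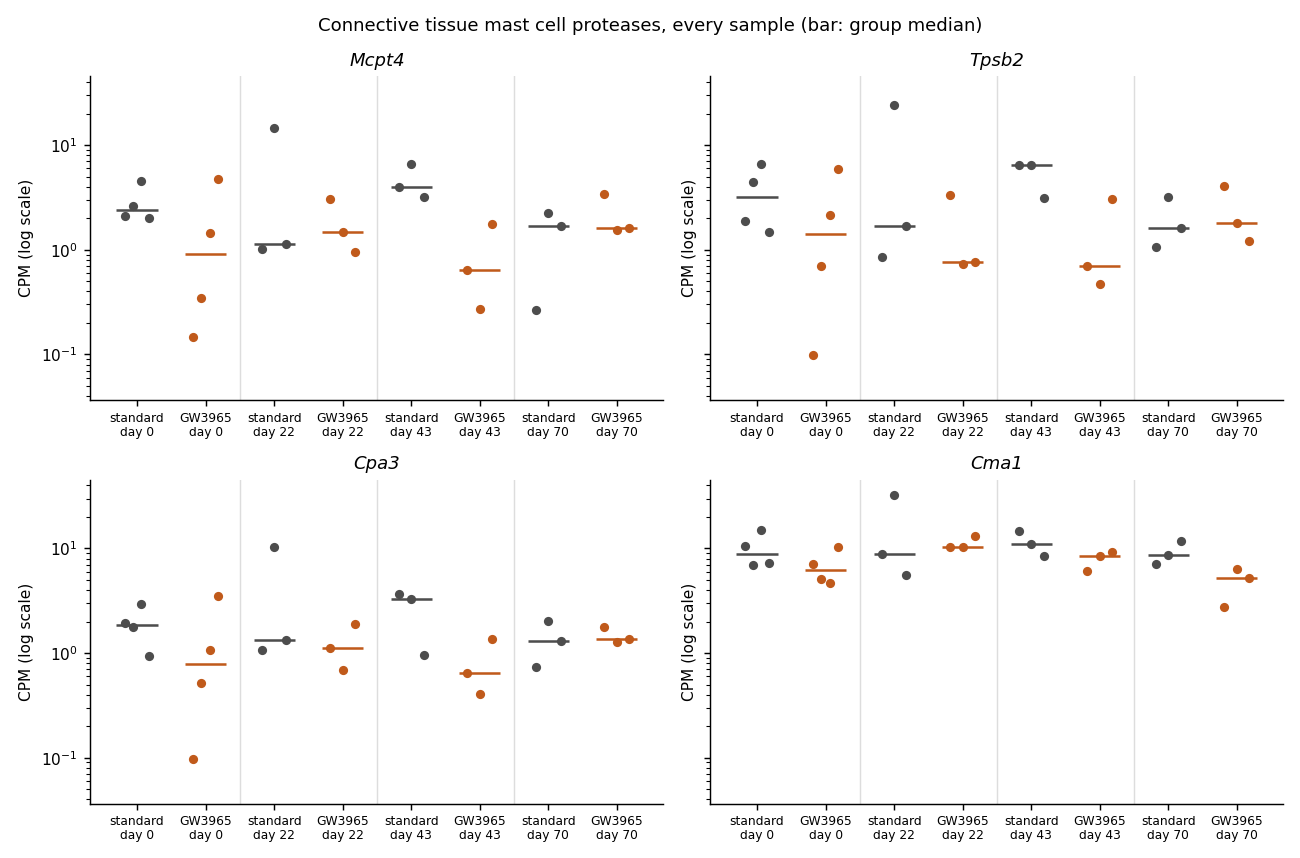
CPM of *Mcpt4*, *Tpsb2*, *Cpa3* and *Cma1* on a log axis in each of the 26 samples, by diet and day, grey for the standard diet and orange for GW3965, with a bar at the group median. Replicate 2 of standard-diet day 22 is the highest sample in every panel, the GW3965 day 0 samples spread over more than 10-fold for *Mcpt4*, *Tpsb2* and *Cpa3*, and *Cma1* stays within a narrower band.

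*Cma1*, a chymase of connective tissue mast cells with elastase-like cleavage, kept a steadier level than the other proteases. It was between 6.94 and 15 CPM at day 0 on the standard diet and between 4.63 and 10.3 CPM on GW3965. At day 22 it was 8.76, 32.8 and 5.53 CPM on the standard diet and 10.3, 10.3 and 13.2 CPM on GW3965, at day 43 14.5, 11 and 8.47 CPM and 6.05, 8.46 and 9.31 CPM, and at day 70 7.15, 8.75 and 11.8 CPM and 2.76, 6.34 and 5.23 CPM. In the GW3965 day 0 sample with 0.147 CPM of *Mcpt4* there were still 7.17 CPM of *Cma1*, and its correlation with *Mcpt4* (r = 0.47), *Tpsb2* (0.45) and *Cpa3* (0.55) was lower than theirs with each other. Its log2 fold changes from day 0 lay between -0.76 and 0.52, and none was called. In a fit of only the 2 groups compared, its day 22 change on GW3965 did pass the test, at 0.73 (edgeR FDR = 0.0458). The authors' quantification divided the gene between 2 transcripts, and each of them was listed at 0 in at least 1 library, so only the sum was used.

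On the standard diet the balance between *Mcpt1* and *Mcpt2* and the group of *Mcpt4*, *Tpsb2* and *Cpa3* turned over from day 0 to day 70. *Cma1* was left out of this group, and it alone was at 10.7, 12.6 and 17.3 TPM in the standard-diet day 70 samples. There *Mcpt1* and *Mcpt2* summed to 8.09, 46.6 and 50.5 TPM, so replicate 1 would not have turned over with *Cma1* counted. The summed level of *Mcpt1* and *Mcpt2* was 0.628 to 2.85 TPM at day 0 on the standard diet, below the 6.03 to 18.4 TPM of *Mcpt4*, *Tpsb2* and *Cpa3*, and the log2 ratio of the sums was -3.41 to -2.69. At day 70 on the standard diet the ratio was 1.56, 2.28 and 3.06, and all 3 samples were above all 4 of day 0. At day 22 it was 3, -0.95 and 3.37 on the standard diet and 2.84, 2.78 and 4.95 on GW3965. On GW3965 the day 0 samples ranged from -3.58 to 1.01, the widest of the untreated groups, and the day 70 samples (-3.73, 2.34 and 0.06) overlapped them. These ratios were given no test of their own.

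**Figure D3:**
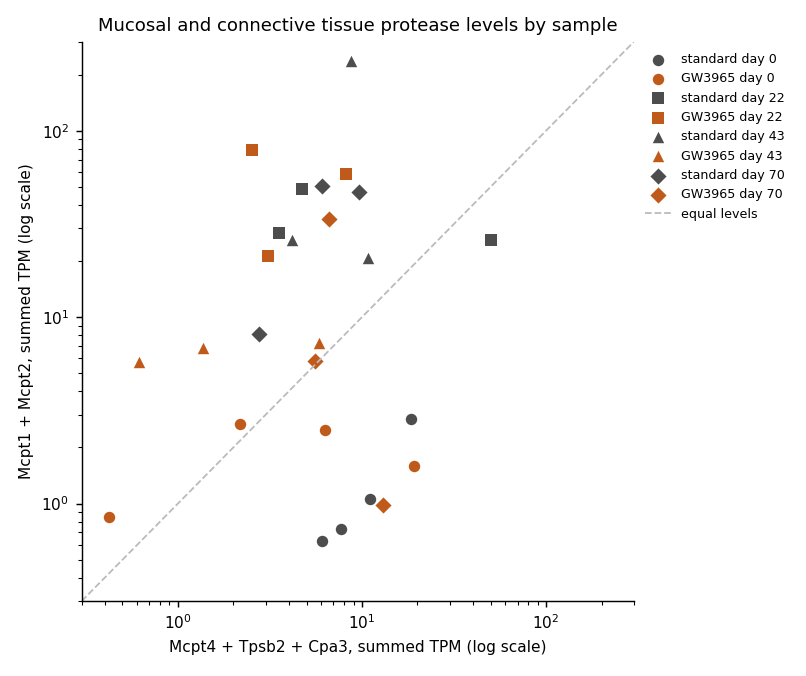
Summed TPM of *Mcpt1* and *Mcpt2* (vertical log axis) against summed TPM of *Mcpt4*, *Tpsb2* and *Cpa3* (horizontal log axis) for each of the 26 samples, grey for the standard diet and orange for GW3965, with marker shape for the day and a dashed line of equal levels. The standard-diet day 0 samples lie below the line, with 0.628 to 2.85 TPM on the vertical axis, and the day 22 samples other than standard-diet replicate 2 lie above it.

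The IgE receptor subunits were the least abundant members that could be tested. *Fcer1a* was 0.283, 0.614, 0.894 and 0.248 CPM at day 0, 0.913, 3.67 and 0.982 CPM at day 22, 16.4, 2.57 and 2.52 CPM at day 43 and 0.263, 0.827 and 0.55 CPM at day 70 on the standard diet. On GW3965 it was 0.098, 0.13, 0.044 and 0.547 CPM at day 0, 1.39, 0.244 and 1.31 CPM at day 22, 0.47, 0.473 and 1.03 CPM at day 43 and 0.205, 0.442 and 0.071 CPM at day 70. On the standard diet all samples of days 22 and 43 lay above all of day 0, as for 15.9% of all tested genes at day 22, where the nearest samples were at 0.913 and 0.894 CPM, and for 25.6% at day 43. Those of day 70 overlapped day 0. The log2 fold change from day 0 on the standard diet was 1.70 ± 0.88 at day 22 (edgeR FDR = 0.283), 3.04 ± 1.88 at day 43 (edgeR FDR = 0.779) and 0.08 ± 0.86 at day 70 (edgeR FDR = 0.952), and on GW3965 it was 2.09 ± 0.95 at day 22 (edgeR FDR = 0.164). Without the ribosomal covariate, *Fcer1a* was called at day 43 on the standard diet (log2 fold change 3.80, edgeR FDR = 0.000668), and at 2.29 with the low-integrity library left out as well (edgeR FDR = 0.0196). With the covariate and without that library it was 1.74 (edgeR FDR = 0.691). At day 22 on GW3965, *Fcer1a* was called in a fit of only the 2 groups compared (2.26, edgeR FDR = 0.0371). For that day and diet it was also called without both the covariate and the low-integrity library (2.25, edgeR FDR = 0.0389). The 3 genes listed as basophil markers (*Mcpt8*, *Prss34* and *Cd200r3*) moved over the same groups. On the standard diet they summed to 0.198 to 0.519 CPM at day 0 and to 2.57 to 2.92 CPM at day 43, and on GW3965 to 0.442 to 0.845 CPM and 0.676 to 2.12 CPM. By group mean, *Mcpt8* was the smaller part of the standard-diet sum of day 43. The sum of the 3 genes correlated with *Fcer1a* at r = 0.68 over the 26 samples, as a description. The part of basophils in the level of *Fcer1a* was not tested.

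*Ms4a2* had 305 counts over all libraries and none in 2 of them, a GW3965 day 0 sample (a level below 0.13 CPM) and GW3965 day 70 replicate 1 (below 0.154 CPM). On the standard diet it was between 0.149 and 0.378 CPM at day 0 and 0.526, 0.697 and 1.02 CPM at day 70, with no overlap, as for 23.9% of all tested genes in that direction, and the log2 fold change of 1.70 ± 0.91 did not pass the test (edgeR FDR = 0.158). In a fit of only the 2 groups compared it did pass, at 1.70 (edgeR FDR = 0.0299). At day 22 it was 0.376, 0.713 and 0.672 CPM on the standard diet and 0.428, 0.049 and 0.634 CPM on GW3965. At day 43 it was 3.92, 0.642 and 0.214 CPM and 0.176, 0.203 and 0.343 CPM, and at day 70 on GW3965 0, 0.295 and 0.212 CPM, all below the standard-diet samples of that day, as for 8.53% of all tested genes. Its highest value was again in standard-diet day 43 replicate 1. In that library *Mcpt1*, *Mcpt2*, *Tpsab1*, *Fcer1a* and *Ms4a2* had their highest level of all 26 samples, while *Mcpt4*, *Tpsb2*, *Cpa3* and *Cma1* did not. Over all samples *Fcer1a* correlated with *Mcpt1* (r = 0.73), *Mcpt2* (0.73) and *Ms4a2* (0.75) more than with *Mcpt4* (0.56).

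**Figure D4:**
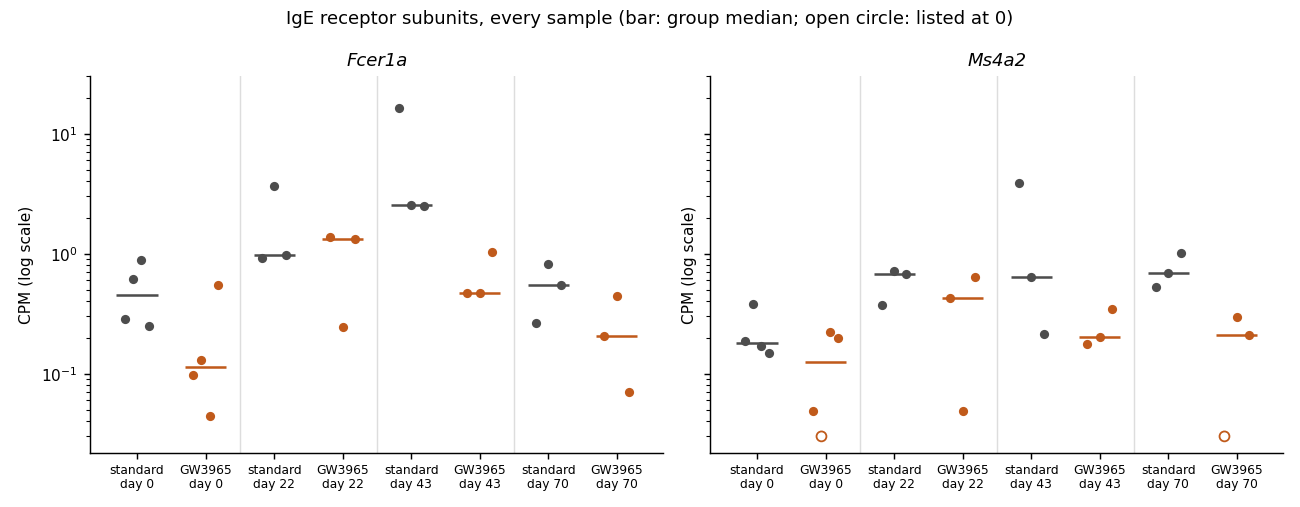
CPM of *Fcer1a* and *Ms4a2* on a log axis in each of the 26 samples, by diet and day, grey for the standard diet and orange for GW3965, with a bar at the group median and open circles for samples listed at 0. Standard-diet day 43 replicate 1 stands highest in both panels, at 16.4 and 3.92 CPM, and the standard-diet day 70 samples of *Ms4a2* lie above its standard-diet day 0 samples.

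The question of the diet was put to each day separately. At day 0, where the diet was the only treatment, 0 of 8 members were called (0 with an unadjusted p under 0.05 in edgeR, and 0 by DESeq2), where 0.0293% of all tested genes were called. *Mcpt1* differed by a log2 fold change of 0.34 ± 0.97 and *Mcpt2* by 0.48 ± 1.06 between GW3965 and the standard diet, and the 6 other tested members had log2 fold changes from -1.33 to -0.57, that is, lower means on GW3965. At day 22, 0 of 8 were called (1 with an unadjusted p under 0.05, *Tpsb2*, and 0 by DESeq2), where 0.135% of all tested genes were. *Tpsb2* was lower on GW3965 by a log2 fold change of -2.59 ± 1.2 (edgeR FDR = 0.48), a value that was 0.55 without standard-diet replicate 2.

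By the median over the 8 tested members, the largest diet difference was at day 43, though not for *Tpsb2*, *Cpa3* or *Cma1* singly. All 8 tested members had a negative log2 fold change, with a median of -2.48 against -0.03 over all tested genes, and 0 of 8 passed the test (3 with an unadjusted p under 0.05 in edgeR, and 0 by DESeq2), where 0.0293% of all tested genes passed. *Mcpt1* was lower on GW3965 by -3.24 ± 1.19 (unadjusted p = 0.0129, edgeR FDR = 0.508), *Mcpt2* by -3.53 ± 1.22 (unadjusted p = 0.00888, edgeR FDR = 0.494) and *Fcer1a* by -3.14 ± 1.17 (unadjusted p = 0.0139, edgeR FDR = 0.508). Of the 8, 5 (*Mcpt1*, *Mcpt2*, *Mcpt4*, *Tpsb2* and *Fcer1a*) were lower in all 3 GW3965 samples than in all 3 standard-diet samples, as 4.2% of all tested genes were. The members were not independent of each other (r = 0.98 between *Mcpt1* and *Mcpt2* and 0.93 between *Mcpt4* and *Tpsb2*). Their shared direction and this count therefore do not add up as separate results. Without standard-diet replicate 1 the differences were -1.71 for *Mcpt1* (edgeR FDR = 0.727), -1.36 for *Mcpt2* (edgeR FDR = 0.763), -1.72 for *Fcer1a* and -2.65 for *Mcpt4*, which had been -2.60 ± 1.37 with it. Each diet's samples of this day came from 1 cage.

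At day 70 the diet comparison called 0 of 8 members (0 with an unadjusted p under 0.05 in edgeR, and 0 by DESeq2), where 1.83% of all tested genes were called. *Mcpt1* was at -1.25 ± 0.98 (edgeR FDR = 0.509) and *Mcpt2* at -0.87 ± 0.98 (edgeR FDR = 0.657) on GW3965. Without GW3965 replicate 2 *Mcpt1* was called, at -3.57 (edgeR FDR = 0.0442). *Cma1* was 7.15 to 11.8 CPM on the standard diet and 2.76 to 6.34 CPM on GW3965, with no overlap, as for 8.53% of all tested genes in that direction, and its log2 fold change was -0.80 ± 0.50 (edgeR FDR = 0.39). GW3965 replicate 1, the library with 23130 CPM of skeletal muscle markers and 1678 CPM of colonic epithelial markers (4906 CPM or more in the other day 70 samples), had the lowest *Mcpt1*, *Mcpt2* and *Cma1* and the highest *Mcpt4* and *Tpsb2* of its day.

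Whether the diet difference changed from day 0 to a later day was tested as an interaction. It was called for 0 of 8 members at days 22, 43 and 70 (0, 2 and 0 with an unadjusted p under 0.05 in edgeR, and 0 each by DESeq2), where 0.0234%, 0% and 0% of all tested genes were called. At day 43 the interaction was -3.58 for *Mcpt1* and -4.00 for *Mcpt2* on the log2 scale (edgeR FDR = 0.994 for each). A joint test of the diet at all 4 days called 0 of 8 (1 with an unadjusted p under 0.05, and 0 by either form of edgeR's likelihood ratio test), where 0.176% of all tested genes were called. The later time steps within a diet (day 22 to 43 and day 43 to 70) gave no call of a member in edgeR or DESeq2, and 2 members, *Mcpt1* and *Mcpt2* from day 22 to 43 on GW3965, had an unadjusted p under 0.05. On GW3965 *Mcpt1* went from 10.0 to 45.3 CPM at day 22 to 3.41 to 4.19 CPM at day 43, without overlap, as for 14.1% of tested genes in that direction (log2 fold change -3.55 ± 1.22, edgeR FDR = 0.529, where 0.147% of all tested genes were called).

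**Figure D5:**
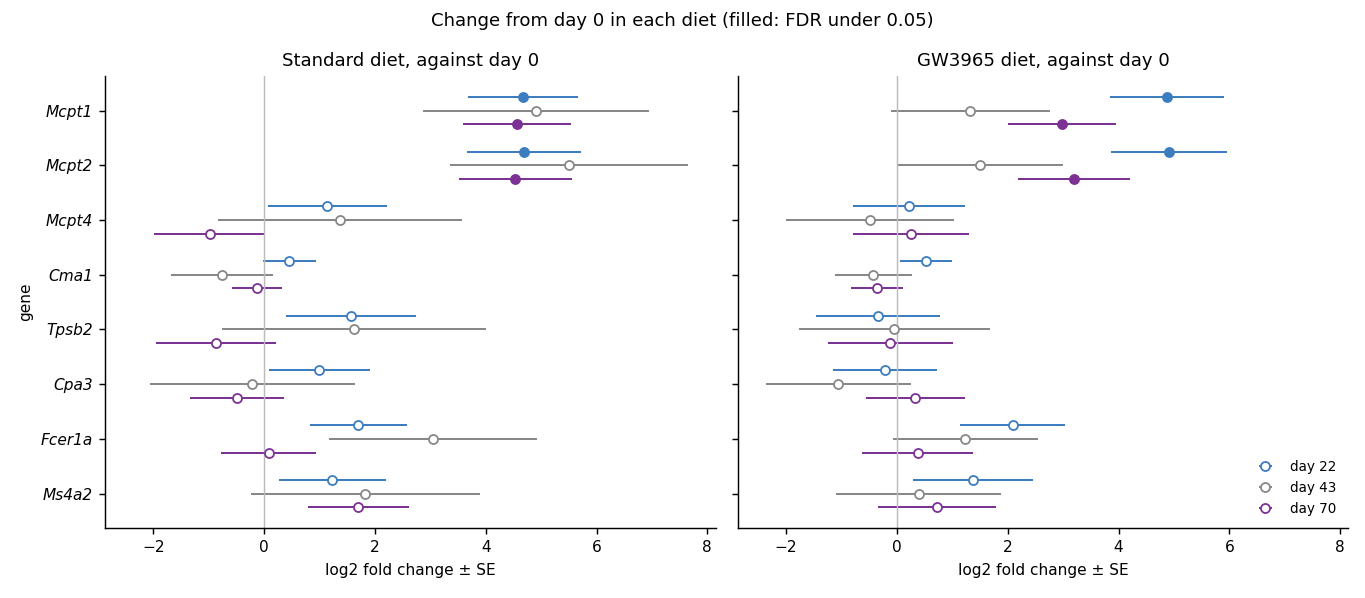
Log2 fold change from day 0 (horizontal axis, with bars of ± 1 SE) of the 8 tested genes at days 22 (blue), 43 (grey) and 70 (purple), for the standard diet on the left and GW3965 on the right, with filled points for FDR < 0.05. The filled points are *Mcpt1* and *Mcpt2* at days 22 and 70 in both diets, between 2.98 and 4.91, and all other genes lie nearer to 0 or have wide bars at day 43.

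Other genes of mast cells were read from lists whose members are shared with other cells. Of 5 tested proteases of these loci or relatives, 2 were called higher at day 22 on the standard diet and 3 on GW3965, where 6.19% and 9.13% of all tested genes were, shares that also apply to the day 22 counts of the other lists. *Mcpt9*, a chymase gene of the same locus, had a mean of 0.0118 CPM at day 0 and 0.627 CPM at day 22 on the standard diet (edgeR FDR = 0.0146), and was listed at 0 in all 4 GW3965 day 0 samples with 0.771 CPM at day 22. Its call was lost without replicate 3 of day 22 on the standard diet (edgeR FDR = 0.0634) and without replicate 1 on GW3965 (edgeR FDR = 0.0955). *Cma2*, the neighbour that shares words with *Mcpt4*, went from 0.011 to 1.47 CPM on GW3965 (edgeR FDR = 0.00324). *Gzmb*, a granzyme of cytotoxic lymphocytes and some mast cells, had a log2 fold change of 4.03 ± 0.59 on the standard diet (edgeR FDR = 0.000786) and 5.16 ± 0.61 on GW3965 (edgeR FDR = 5.8e-05). *Mcpt8*, the basophil protease, stayed at group means of 0.508 CPM or less and was not tested.

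Of 12 mediator and granule genes, 2 were called higher at day 22 in each diet. *Hdc*, which makes histamine in mast cells and also in myeloid cells, was at a mean of 0.463 CPM at day 0 and 24.6 CPM at day 22 on the standard diet (log2 fold change 5.63 ± 0.99, edgeR FDR = 0.00221), and at 0.494 and 9.52 CPM on GW3965 (4.15 ± 0.98, edgeR FDR = 0.00834). The GW3965 call was lost without replicate 1 of day 22 (3.46, edgeR FDR = 0.0843), and the 3 standard-diet samples of day 22 had an SD about as large as their mean. *Srgn*, the serglycin core protein of granules in many leukocytes, had a log2 fold change of 2.79 ± 0.50 (edgeR FDR = 0.00259) and 2.74 ± 0.51 (edgeR FDR = 0.00181). At day 70 on the standard diet 2 of the 12 were called higher and 4 lower, where 18.1% and 15.1% of all tested genes were, among them *Tph1*, which makes serotonin in enterochromaffin cells and mast cells (-2.13 ± 0.43, edgeR FDR = 0.00112), and *Hpgds*, a prostaglandin D synthase (-1.13 ± 0.28, edgeR FDR = 0.00488).

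Of 13 tested receptors and transcription factors, 4 were called higher at day 22 on the standard diet, and 7 were called higher and 1 lower on GW3965, where 3.46% of all tested genes were called lower. *Fcer1g*, the γ chain that the IgE receptor shares with receptors of myeloid cells, had a log2 fold change of 2.12 ± 0.46 (edgeR FDR = 0.00856) and 2.31 ± 0.47 (edgeR FDR = 0.00294), and its standard-diet call was lost without replicate 3 of day 22 (edgeR FDR = 0.06). *Kit*, the receptor for stem cell factor on mast cells and on the pacemaker cells of the gut muscle, did not follow the mucosal chymases: it was at a mean of 30.8 CPM at day 0 and 13.5 CPM at day 70 on the standard diet (-1.17 ± 0.18, edgeR FDR = 0.000173), and at 32 and 21.7 CPM on GW3965 (-0.71 ± 0.18, edgeR FDR = 0.00924; without the ribosomal covariate -0.56, edgeR FDR = 0.0637). The 8 smooth muscle markers, all detected in every library, summed to 5742 to 24840 CPM at day 0 and to 1677 to 7716 CPM at day 70, and their part in the fall of *Kit* was not tested. *Il1rl1*, the receptor for the alarmin of *Il33*, rose at day 70 by 4.27 ± 0.82 on the standard diet (edgeR FDR = 0.00081) and 4.35 ± 0.85 on GW3965 (edgeR FDR = 0.00149). In the diet comparison of day 70, *Mitf*, a transcription factor that mast cells need (1.85 ± 0.41, edgeR FDR = 0.0307), and the kinase *Btk* (2.64 ± 0.61, edgeR FDR = 0.0354), also of B cells, were higher on GW3965, as were 1.75% of all tested genes. Both calls were lost in a fit of the 2 groups alone (edgeR FDR = 0.409 for each) and without any of the 3 standard-diet samples, that of *Mitf* also without GW3965 replicate 1 (1.16, edgeR FDR = 0.126) and that of *Btk* without GW3965 replicate 2 (1.61, edgeR FDR = 0.0854). The 5 B cell markers summed to 3.63 to 7.01 CPM on the standard diet and to 14.8 to 300.3 CPM on GW3965 at that day, highest in replicate 2, and their part in *Btk* was not tested.

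Of the growth factors and cytokines, 10 of 15 could be tested. *Il9*, which drives mucosal mast cell growth, was not among them and was listed at 0 in 7 of 8 groups, with a group mean of 0.0163 CPM in GW3965 day 43. *Kitl*, the gene of stem cell factor, was called in none of the comparisons. *Il33* rose at day 70 by 1.78 ± 0.44 on the standard diet (edgeR FDR = 0.00442) and 1.90 ± 0.44 on GW3965 (edgeR FDR = 0.00487), where it was 0.83 and not called without replicate 3 (edgeR FDR = 0.163). At day 22, 2 of the 10 were called higher on the standard diet and 1 on GW3965. *Il10* was called in both diets, at 3.85 ± 0.83 (edgeR FDR = 0.0084) and 4.63 ± 0.85 (edgeR FDR = 0.00152). Its standard-diet call was lost without replicate 3 of day 22 (edgeR FDR = 0.0614). *Tgfb1*, whose product is known to induce *Mcpt1*, was called on the standard diet only, at 1.44 ± 0.40 (edgeR FDR = 0.0317). That call was lost with any of 5 libraries left out, replicates 2 and 3 of day 22 and 3 of the day 0 samples (edgeR FDR = 0.0514 to 0.118). Of 8 homing genes, 6 were called higher at day 22 on the standard diet and 3 on GW3965, among them the chemokine receptors *Cxcr2* and *Ccr2* and the adhesion molecule *Vcam1*, which are also those of neutrophils, monocytes and endothelium. Without replicate 3 of day 22, the standard-diet calls of *Ccr2* (edgeR FDR = 0.0578) and *Vcam1* (edgeR FDR = 0.0752) were lost. The GW3965 call of *Vcam1* was lost with any of several single libraries left out (edgeR FDR = 0.0693 to 0.148). In the diet comparison of day 70, *Vcam1* was higher on GW3965 by 2.06 ± 0.35 (edgeR FDR = 0.0167) and *Itgae*, the αE integrin of cells within the epithelium, by 1.68 ± 0.43 (edgeR FDR = 0.0482). Neither passed in a fit of the 2 groups alone (edgeR FDR = 0.409 for each), *Vcam1* was not called without standard-diet replicate 1 (edgeR FDR = 0.131) or 3 (edgeR FDR = 0.109), and *Itgae* was not called without the ribosomal covariate (edgeR FDR = 0.0725) or without any of the 3 standard-diet samples or GW3965 replicate 1 or 2 (edgeR FDR = 0.0603 to 0.244).

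The genes most like *Mcpt1* over the 26 samples, by Pearson r of log2 CPM, were *Cd244a* (0.87), *Ikbkb* (0.86), *Slfn4* (0.86), *Cdc7* (0.85) and *Tmem181b-ps* (0.84), all below the 0.98 of *Mcpt2*. For *Cpa3* the closest genes outside the members were *Htr2a* (0.65), *Rhoj* (0.62), *Fstl1* (0.61), *Gm14443* (0.61) and *Gm15443* (0.61), well below *Tpsb2* and *Mcpt4*. For *Cma1* they were *Zscan30* (0.68), *Ankle1* (0.61), *Zfp456* (0.59), *Ccdc137* (0.58) and *Zfp873* (0.57). These values describe samples that share depth and tissue makeup, and they are given without a test.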

How the data were processed

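RNA of colon tissue (26 samples) was sequenced by a service provider after poly(A) selection. The deposited files give, for each sample and transcript, estimated counts and TPM, which the authors made with kallisto against a mouse transcriptome of GRCm38; its version, the annotation release and a strand setting are not given in the sources used here. Here, 116728 of 119414 transcripts (97.8%) were matched by ID to GENCODE vM21, and unmatched transcripts held 0.615% to 0.999% of counts. Estimated counts were summed by gene (35975 genes) and rounded. Totals ranged from 18195345 to 41522204 counts, so that a count of 0 allows up to 0.093 to 0.203 CPM (3 counts, counting error only). CPM were computed from these counts with TMM scaling, and TPM was used for levels between genes only.

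After edgeR's filter on low counts, 17063 genes were tested with edgeR 4.0.16 (R 4.3.3; quasi-likelihood F-test) in 1 model of the 8 diet-by-day groups and the share of each library taken by 88 ribosomal protein genes, as an additive term. The study's model, diet, time and percentage of ribosomal RNA with all interactions, was run only as an alternative of the joint diet test, with that share in place of the percentage. The threshold was a Benjamini-Hochberg FDR of 0.05 over all tested genes, and the SE was derived from the F statistic. Contrasts were GW3965 versus standard diet at each day, each later day versus day 0 and versus the day before it, the change of the diet difference from day 0, and a joint diet test. DESeq2 1.42.0, RLE scaling, no filter, no ribosomal covariate, RNA integrity as covariate, fits of only the groups compared, day 0 controls of the same days on diet, a replicate block, each sample left out in turn and, chosen after seeing the data, summed paralogs, split *Cma1* transcripts and fits without the low-integrity library, with and without the covariate, were the alternatives. Correlations used log2 CPM with a prior count of 2. Genes named as alike were the 5 with the highest Pearson r to *Mcpt1*, *Cma1* or *Cpa3* outside the members; from the gene lists, at most the 3 genes of smallest p among those called in a diet comparison, or in a time comparison, were eligible to be named, and *Kit*, *Hdc*, *Il1rl1*, *Mcpt8*, *Kitl*, *Il9*, *Il33* and *Itgae* whether called or not. Promoters were aligned with Biopython 1.88. Scripts were tested on simulated counts.

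The members and gene lists were chosen with earlier results of these data known.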

Additional observations from a re-analysis of the deposited data

Results flagged for a closer look

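*Fcer1a*, the α subunit of the IgE receptor, stood apart in 1 sample of the untreated GW3965 group: it was at 0.5468 CPM in the sample of 43 days on diet, replicate 2, and between 0.0441 and 0.13 CPM in the other 3. The gap to the nearest sample, as a part of the whole range of the group, was just past Dixon's 95% limit for 4 samples. It rested on values near the floor: the flagged sample held 11 counts, and the other 3 held 2, 3 and 1. Those 3 lay at or below the limits of 0.147, 0.13 and 0.132 CPM that a count of 0 would allow there. In all, 18 pairs of a member and a group of 4 were examined, and chance alone marks about 1 in 20 such pairs. The same sample had the highest *Mcpt4* (4.72 CPM), *Tpsb2* (5.92 CPM) and *Cpa3* (3.48 CPM) of its group, and it is the sample whose title and diet characteristic differ.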

How the results depend on the processing

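*Mcpt1* and *Mcpt2* were the 2 members called in each of the 4 comparisons with a call, and no called value turned its direction under any alternative. The number of members called at FDR < 0.05 changed as follows. Without the ribosomal covariate it was 4 for day 43 against day 0 on the standard diet and 2 on GW3965 (0 with it in both), 1 for day 43 against day 22 and 2 for day 70 against day 43 on the standard diet (0 with it). With the low-integrity library left out as well, it was 3 for day 43 against day 0 and 1 for day 70 against day 43 on the standard diet, and 2 for day 43 against day 0 on GW3965. In that fit *Fcer1a* was also called for day 22 against day 0 on GW3965. Leaving out the covariate alone moved the median log2 fold change of all genes from 0.063 to 0.137 for day 43 against day 0 on the standard diet. With RNA integrity as covariate it was 2 for day 43 against day 0 on the standard diet. In fits of only the 2 groups compared it was 3 for day 43 against day 0 and 1 for day 70 against day 43 on the standard diet, and 4 at day 22 (*Mcpt1*, *Mcpt2*, *Fcer1a* and *Cma1*), 2 at day 43 and 0 at day 70 against day 0 on GW3965. Such a fit also called *Ms4a2* for day 70 against day 0 on the standard diet. With day 0 controls of the same days on diet, which leaves 2 controls, the number of members called was 0 at day 22 in both diets. Left-out samples gave 0 to 1 for the diet at day 70 (1 without GW3965 day 70 replicate 2) and 0 to 2 for day 70 against day 0 on GW3965: 0 without day 70 replicate 2 or the day 0 samples 22 days replicate 1 or 43 days replicate 2, and 1 without either other day 0 sample. Replicate numbers did not pair the samples (mean correlation of same-numbered samples -0.066, 13 pairs, -0.37 to 0.201), and the replicate block left 1 member called for day 70 against day 0 on GW3965 and moved no other count of members. Leaving the low-integrity library out of the fit with the covariate, RLE scaling, no filter and DESeq2 changed none of these counts. Over all genes, the call count for day 43 against day 0 on the standard diet was 0 with the covariate, 9394 without it and 203 by DESeq2. The cause of these changes was not tested. *Ms4a2* and *Tpsab1*, with 305 and 121 counts in all, are limited by depth.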
